A study of Mus musculus with 6 samples.

Results

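Histone transcripts were followed through an RNA immunoprecipitation (RIP) of the RNA-binding protein LIN28B in mouse B cell progenitors. The set comprised every entry with a replication-dependent histone name (Hist1h to Hist4h) or a variant name (H2af, H3f3, H1f0 or H1fx) whose mean over the 3 input libraries was at least 1 FPKM (fragments counted per unit of transcript length and of sequencing depth). This rule kept 75 of 89 histone entries, of which 64 were replication-dependent and 11 were variants, among 12576 genes above the same minimum and 54752 genes in all. The input level alone chose the members, so their abundance is a description. The entries just inside the minimum were H1fx at 1.06, Hist3h2bb-ps at 1.07 and Hist1h2br at 2.40 FPKM, and those just outside were Hist1h2al at 0.990, H3f3a-ps1 at 0.733 and Hist2h3c1 at 0.517 FPKM.

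Replication-dependent histone genes are transcribed in S phase, when new DNA has to be packed into nucleosomes. They lack introns, and their mRNAs normally end in a conserved stem-loop, bound by the stem-loop binding protein SLBP, in place of a poly(A) tail. Variant histones such as H3.3, H2A.Z and macroH2A are made throughout the cell cycle from polyadenylated mRNAs, and dividing progenitor B cells need both kinds. LIN28B is a fetal RNA-binding protein known for blocking let-7 maturation and for binding many mRNAs, often at GGAGA-like sequences.

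The tet-LIN28B mice carried a Dox-inducible FLAG-tagged human LIN28B cDNA at the Col1a locus (Col1a tetO-LIN28B) and the rtTA m2 activator at Rosa26. The reference was a littermate without the LIN28B transgene. By the paper, the control littermates were heterozygous for the same Rosa26 activator, and the tet-LIN28B mice were monoallelic for the transgene. Whole adult bone marrow of either genotype was grown for 5 days with 20 ng/mL IL-7 and with Dox, which the control cells received too, so the progenitors were an expanded culture and not sorted. FLAG IP RNA and input RNA were sequenced from each culture, giving 2 IP and 2 input libraries from tet-LIN28B mice and 1 IP and 1 input library from the control. The control IP holds no tagged protein and measures what the beads and antibody recover on their own. The methods describe SMART-Seq v4, which primes from poly(A) tails, without setting IP and input apart. The paper's results, however, call the IP sequencing poly-A selected and the input sequencing total RNA, which could not be settled. With poly(A) priming, the replication-dependent entries report the part of each transcript that oligo-dT could reach, which was not measured against total histone mRNA. The part of a possible difference in library type in the IP/input ratios was not tested.

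The deposited values summed to between 1144868 and 1384941 FPKM per library, the read depth behind them is unknown, and 18297 to 21383 genes were above 0 in a library. The mouse Lin28b entry stood at 0.24 and 0.44 FPKM in tet-LIN28B IPs and 0 in the control IP, and at 0.62 and 1.03 FPKM in tet-LIN28B inputs and 0.01 FPKM in the control input; whether reads of the human cDNA were counted there was not tested. All 16 listed B cell progenitor markers were present and summed to 12427.89 and 14968.80 FPKM in tet-LIN28B inputs and 15310.66 FPKM in the control input. The 32 listed markers of other marrow cells summed to 8599.80 and 5300.54 FPKM in tet-LIN28B inputs and 7039.49 FPKM in the control input, most of it S100a9 and S100a8, and 8 of the 32 were under 1 FPKM in every input. The part of those cells in the histone values was not tested.

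The 3′ stem-loop is the feature that sets the replication-dependent genes apart, so the loops of members that the results turn on are shown, read from the RefSeq sequence of GRCm38 with the 16-nt stem and loop in capitals and 5 flanking bases on either side. Hist1h2ap (chr13:21833029-21833044, minus strand) was the most abundant member, Hist1h3b (chr13:23752820-23752835, plus) and Hist1h4c (chr13:23698089-23698104, minus) were among the lowest in the IP, Hist1h1e (chr13:23621782-23621797, minus) and Hist1h1a (chr13:23764392-23764407, plus) are linker histones that differed in the IP, and H2afx (chr9:44335240-44335255, plus) is a variant gene that carries a loop.
Hist1h2ap: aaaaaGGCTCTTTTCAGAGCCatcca
Hist1h3b: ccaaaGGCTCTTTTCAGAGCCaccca
Hist1h4c: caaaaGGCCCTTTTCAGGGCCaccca
Hist1h1e: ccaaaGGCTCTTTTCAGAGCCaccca
Hist1h1a: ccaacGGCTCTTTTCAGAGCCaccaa
H2afx: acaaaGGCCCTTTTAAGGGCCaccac

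The loops were found by searching the sense strand of the 150 nt after each annotated stop codon for the histone stem-loop, 16 nt that open with GG, have CTTTT from position 5 and AG from position 11, close with CC and are free elsewhere. The motif occurred in 64 of 80 histone genes and in 2 of 21671 other coding genes (0.00923%). Of the 64 replication-dependent members, 58 carried it, starting 22 to 59 nt (median 31.5) after the stop codon, and 47 of these lay on chromosome 13. There were 6 forms of the 16 nt, of which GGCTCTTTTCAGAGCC occurred in 39 members and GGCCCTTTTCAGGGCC in 7 members, all of them H4 genes. A match describes the DNA and does not show which 3′ end an RNA used.

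In tet-LIN28B cells the replication-dependent transcripts were low in the IP. The plot of IP and input levels shows the 14 most abundant of those with a value above 0 in both tet-LIN28B IPs, with the 8 variants above 10 FPKM that met the same condition, which leaves out H3f3c and Hist1h3b because they were listed at 0 in a tet-LIN28B IP.

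**Figure D1:**
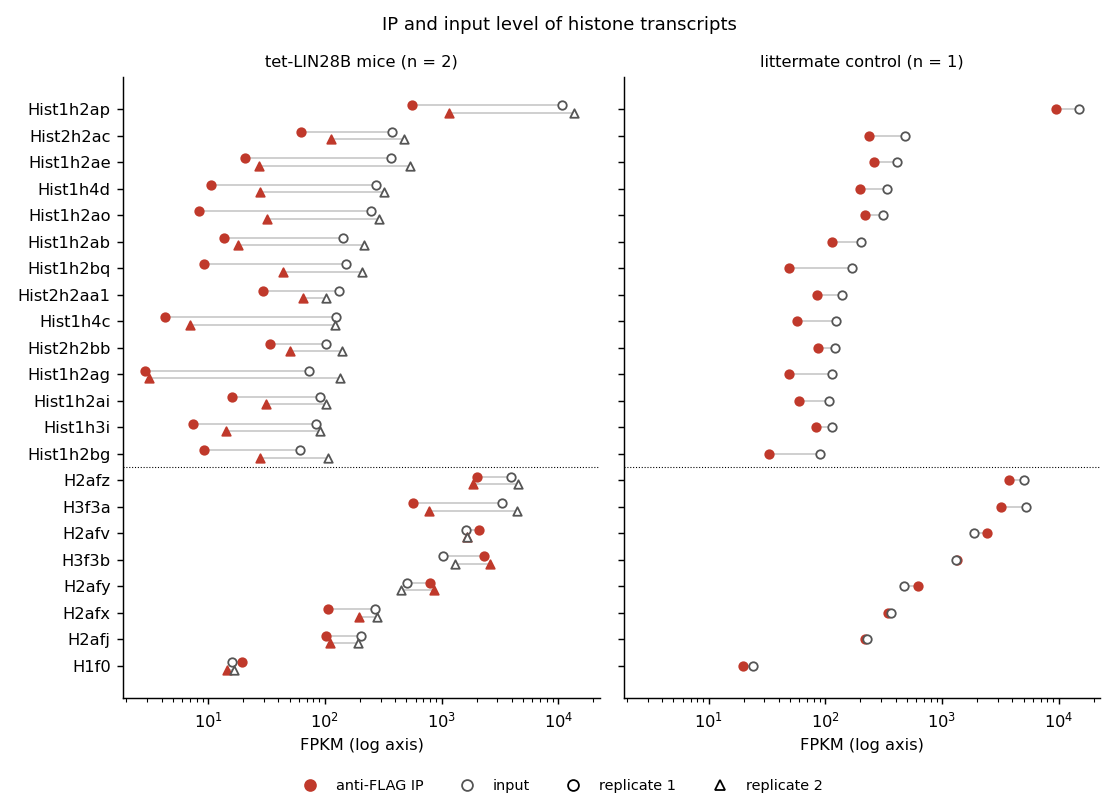
IP (filled) and input (open) levels in FPKM on a log axis for 14 replication-dependent members (above the dotted line) and 8 variants (below it), in 2 tet-LIN28B mice (left panel, circles replicate 1, triangles replicate 2) and 1 littermate control (right panel). Each grey line joins the IP and the input of 1 mouse, and the lines of the replication-dependent members are longer in the tet-LIN28B panel except that of Hist2h2aa1 in replicate 2 (for Hist1h2ap, 557.31 and 1156.33 FPKM in the IPs) than in the control panel (9434.89 FPKM in the IP).

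Hist1h2ap, an H2A gene, had 557.31 and 1156.33 FPKM in tet-LIN28B IPs against 10759.94 and 13503.40 FPKM in tet-LIN28B inputs. In the control it had 9434.89 FPKM in the IP and 14837.09 FPKM in the input. Its IP/input ratio was therefore 0.0518 and 0.0856 in the tet-LIN28B mice against 0.636 in the control, so that both tet-LIN28B ratios lay below the control ratio. Its entry held most of the class. All 64 members summed to 1062.17 and 1957.07 FPKM in tet-LIN28B IPs and 12129.49 FPKM in the control IP. Their inputs summed to 14518.45 and 18137.36 FPKM in tet-LIN28B mice and 19416.02 FPKM in the control. Of the 50-nt words of Hist1h2ap, 93.1% occurred in other genes, most often in Hist1h2ao. How much of its level came from other copies was not tested. The pair summed to ratios of 0.0514 and 0.0861 in tet-LIN28B mice against 0.637 in the control. Without Hist1h2ap the other 63 members gave summed IP/input ratios of 0.134 and 0.173 in tet-LIN28B mice against 0.588 in the control, the same order as with it (0.0732 and 0.108 in tet-LIN28B mice, 0.625 in the control). The 11 variants summed to ratios of 0.737 and 0.632 in tet-LIN28B mice against 0.816 in the control.

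IP and input were compared in tet-LIN28B mice with limma on the within-mouse log2((IP + 1)/(input + 1)), called below the log2 IP/input, with Benjamini-Hochberg adjustment over all 12576 genes and a call at an adjusted p under 0.05. Of the 64 replication-dependent members, 57 were lower in the IP and none was higher, where 31.0% of all genes tested were called lower and 13.9% higher. Of the 11 variants, 6 were lower and 2 were higher. With no filter on low genes limma called 0 genes in this comparison. At an unadjusted p under 0.05, 52 of the 64 members were then lower, and 6809 of 26505 genes differed in either direction. Under the other alternatives that kept all 64 members, 56 to 59 were called lower, as were 2979 to 3970 of all 12576 genes. The median log2 IP/input was −2.64 over the replication-dependent members, −0.89 over the variants and −0.32 over all genes tested. A mean IP/input ratio below 0.5 was found in 59 of the 64 replication-dependent members and in 4 of the 11 variants, against 30.6% of all genes tested. One member, Hist1h2br, had a mean ratio above 2 (9.62% of all genes tested), and its inputs were 0.23 and 0.01 FPKM.

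The control IP also held less of most replication-dependent transcripts than its input, but by less. The ratio was below 1 in 57 of the 64 members in the control (45.9% of all genes tested), with a median of 0.559, while the medians in the tet-LIN28B mice were 0.0814 and 0.152. It was below 0.5 in 25 of 64 members in the control, against 6.01% of all genes tested, and above 2 in 3 members, against 7.28%. In the variants the median ratio was 0.518 and 0.578 in tet-LIN28B mice against 0.819 in the control, and over all genes tested it was 0.715 and 0.817 in tet-LIN28B mice against 1.04 in the control. The plot of ratios by mouse shows these values gene by gene.

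**Figure D2:**
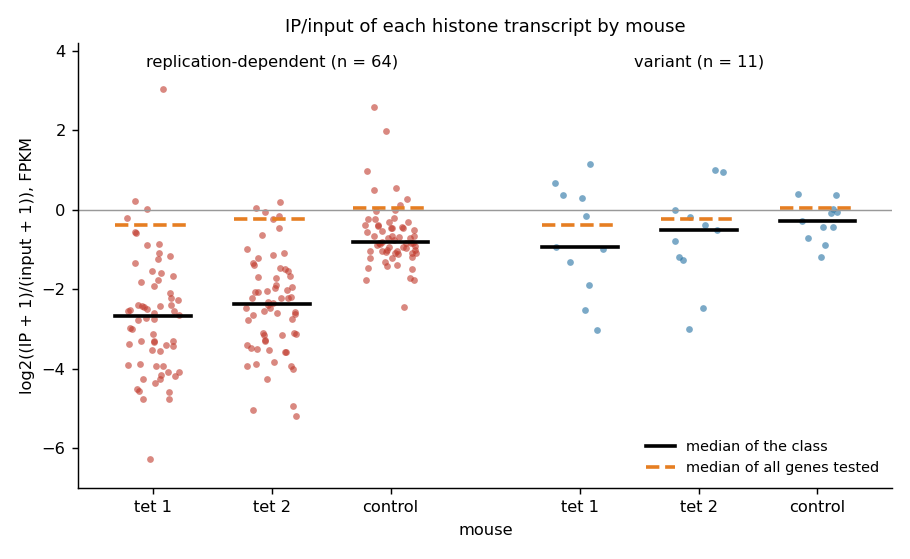
Each point is the log2((IP + 1)/(input + 1)) of 1 histone transcript in FPKM in 1 mouse, for 64 replication-dependent members (left) and 11 variants (right), with the class median (black) and the median of all 12576 genes tested (dashed). The class medians of the replication-dependent members were −2.68 and −2.38 in tet-LIN28B mice against −0.82 in the control, and in each mouse they lay below the median of all genes.

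Across the members the 2 tet-LIN28B mice ranked the replication-dependent transcripts in a similar order, with Pearson's r of 0.740 and Spearman's rho of 0.732 over 64 genes, which share libraries and in part sequence and are not independent replicates. Replicate 1 had the lower median.

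The tet-LIN28B IP/input was then compared with the control IP/input, with the 1 control mouse given the spread seen between the 2 tet-LIN28B mice. FPKM is scaled within each library, so the difference compares relative levels and subtracts no background. Whether the tet-LIN28B IPs recovered less histone RNA in absolute terms was not tested. Of the 64 replication-dependent members, 14 were lower in tet-LIN28B mice and none was higher, where 2.53% of all genes tested were called lower and 0.382% higher (318 and 48 genes, or 188 and 68 after median centring). All 14 had both tet-LIN28B ratios below the control ratio, as had 55 of the 64 members in all and 59.7% of all genes tested. None of the 11 variants was called in either direction. The adjusted p values of the 14 ran from 0.0363 to 0.0485 and those of 21 further members from 0.05 to under 0.1. At an unadjusted limma p under 0.05, 41 members were lower, as were 2925 of the 12576 genes tested. The median difference was −1.75 on the log2 scale over the replication-dependent members, −0.63 over the variants and −0.39 over all genes tested. The calls against the control depended on the fit. With a pseudocount of 0.1 FPKM, no variance trend, no filter or no replicate block, limma called 0 genes of any kind in this comparison. In these fits 40, 41, 23 and 32 replication-dependent members were lower at an unadjusted p under 0.05. Over all genes 3425, 3645, 6523 (of 26505) and 3499 had such a p in either direction. Among the 49 members of at least 10 FPKM in the input 31 were called lower, as were 1130 of 6347 genes at that filter.

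**Figure D3:**
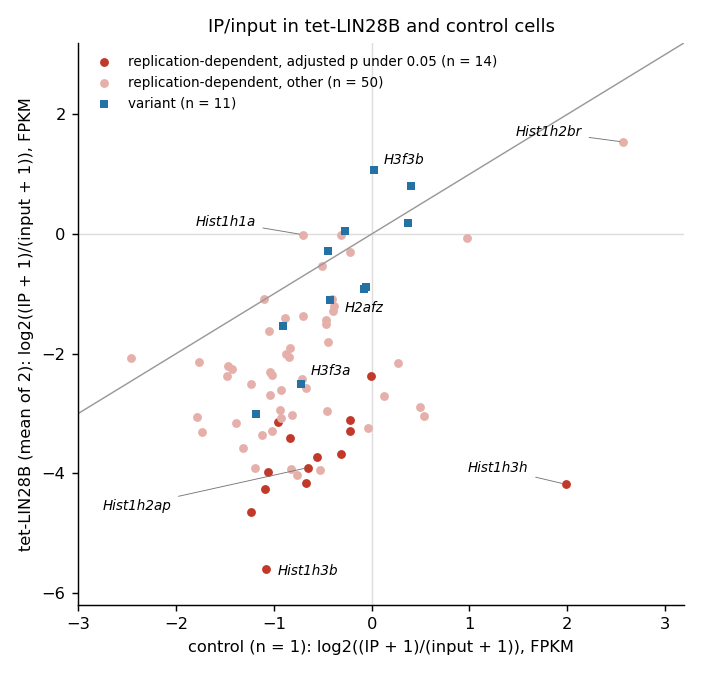
Log2((IP + 1)/(input + 1)) in FPKM of each member in tet-LIN28B cells (mean of 2 mice, vertical axis) against the control (1 mouse, horizontal axis), with the line of equal values. Dark red points are the 14 replication-dependent members with an adjusted p under 0.05 for the difference, pale points the other 50, and blue squares the 11 variants. Most replication-dependent members lie below the line, H3f3b lies above it, and H3f3a lies below it.

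The core histones H2A, H3 and H4, which build the nucleosome with H2B, held the 5 members with the lowest log2 IP/input in tet-LIN28B mice. Among the 18 H2A members 16 were lower in the tet-LIN28B IP than in the input, and 5 were lower than the control. Hist1h2ae had 20.64 and 27.11 FPKM in tet-LIN28B IPs and 259.52 FPKM in the control IP, against 366.79 and 536.23 FPKM in tet-LIN28B inputs and 415.12 FPKM in the control input. Its difference from the control was −3.50 ± 0.27 (SE, log2 scale, limma adjusted p = 0.0429), and that of Hist1h2ap was −3.25 ± 0.41 (limma adjusted p = 0.0473). Hist1h2ag had the lowest log2 IP/input of the H2A members, −4.65 ± 0.24 (SE) in tet-LIN28B mice, with 2.88 and 3.11 FPKM in tet-LIN28B IPs and 48.41 FPKM in the control IP. In its inputs the level was 73.47 and 134.47 FPKM in tet-LIN28B mice against 114.82 FPKM in the control. Hist1h2ab (difference −2.57) and Hist1h2an (−2.36) were the other called members. Hist2h2ac, a cluster 2 H2A gene with 63.12 and 112.14 FPKM in tet-LIN28B IPs and 234.41 FPKM in the control IP, had inputs of 373.27 and 474.02 FPKM in tet-LIN28B mice against 483.38 FPKM in the control. It was lower in the tet-LIN28B IP than in the input (−2.31 ± 0.19, limma adjusted p = 0.00317) and its difference from the control, −1.27, did not pass.

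All 12 H4 members were lower in the tet-LIN28B IP than in the input, and 5 of them were lower than the control. Hist1h4c had 4.26 and 6.96 FPKM in tet-LIN28B IPs and 57.05 FPKM in the control IP, against 124.67 and 121.50 FPKM in tet-LIN28B inputs and 122.33 FPKM in the control input. The 3 inputs were close to one another, while both tet-LIN28B IPs lay below the control IP. The difference was −3.17 ± 0.38 (SE, log2 scale, limma adjusted p = 0.0449). Hist1h4d, the most abundant H4 member, had 10.60 and 27.92 FPKM in tet-LIN28B IPs and 199.52 FPKM in the control IP, with inputs of 274.91 and 322.92 FPKM in tet-LIN28B mice against 338.89 FPKM in the control, and its difference of −3.27 ± 0.51 missed the threshold (limma adjusted p = 0.0521). Hist1h4k (−3.36), Hist1h4b (−3.17), Hist1h4a (−3.07) and Hist1h4n (−2.92) made up the rest of the called H4 genes.

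All 11 H3 members were lower in the tet-LIN28B IP than in the input, and 2 were lower than the control. Hist1h3b was listed at 0 and at 2.02 FPKM in tet-LIN28B IPs and at 45.59 FPKM in the control IP, against 77.02 and 91.18 FPKM in tet-LIN28B inputs and 97.47 FPKM in the control input. It had the lowest log2 IP/input of all members, −5.61 ± 0.36 (SE) in tet-LIN28B mice. Hist1h3h was the second called gene and was listed at 0 in both tet-LIN28B IPs and at 15.07 FPKM in the control IP, with inputs of 19.55 and 15.09 FPKM in tet-LIN28B mice against 3.06 FPKM in the control, so no fold is given for it. It shared 93.9% of its 50-nt words with other genes, most with Hist1h3i, and the pair summed to ratios of 0.0726 and 0.135 in tet-LIN28B mice against 0.838 in the control.

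The H2B members were lower in the IP by less. Of 18 members 14 were lower in the tet-LIN28B IP than in the input, and Hist1h2bk alone was lower than the control. It had 6.43 and 7.48 FPKM in tet-LIN28B IPs and 36.92 FPKM in the control IP, with inputs of 58.09 and 81.99 FPKM in tet-LIN28B mice against 72.84 FPKM in the control (difference −2.18 ± 0.31, SE, log2 scale, limma adjusted p = 0.0485). Hist1h2bc stood apart, with 47.77 and 51.75 FPKM in tet-LIN28B IPs and 56.88 FPKM in the control IP against 72.21 and 72.14 FPKM in tet-LIN28B inputs and 81.05 FPKM in the control input. Its ratios of 0.662 and 0.717 in tet-LIN28B mice bracketed the control ratio of 0.702. The median difference over the H2B members was −1.04 on the log2 scale, against −2.21 for H2A, −2.42 for H3 and −3.08 for H4; differences between families were not tested.

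Summed FPKM gave the same picture by family, and sums depend less on how reads were split among near-identical genes of a family. Entries on the opposite strand that share sequence are not in the sums. The H2A sum was mostly Hist1h2ap, with 10759.94 of 12432.57 FPKM in the input of tet-LIN28B replicate 1. The H4 sum had IP/input ratios of 0.0512 and 0.0838 in tet-LIN28B mice against 0.587 in the control. For H2B the ratios were 0.204 and 0.260 in tet-LIN28B mice against 0.502 in the control. The linker histones H1 had the highest ratios of the 5 replication-dependent families, 0.435 and 0.326 in tet-LIN28B mice against 0.746 in the control.

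**Figure D4:**
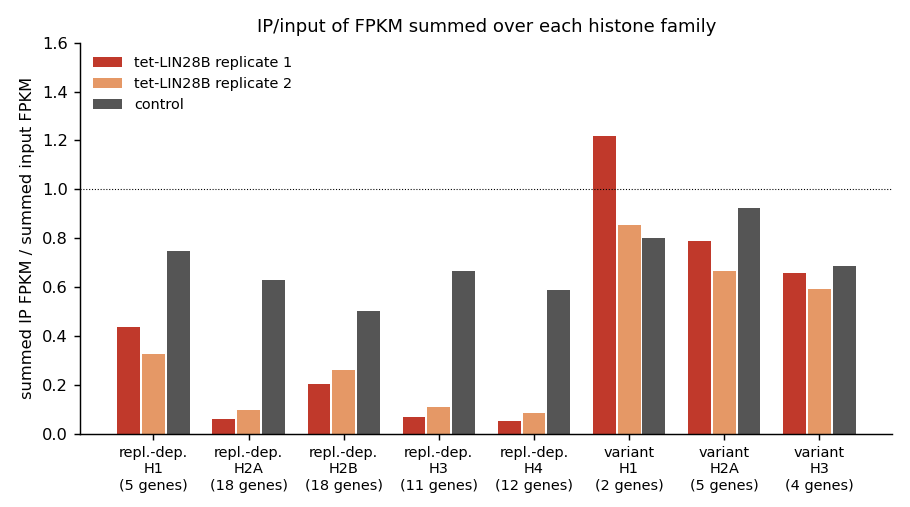
Summed IP FPKM divided by summed input FPKM for each histone family, in tet-LIN28B replicate 1 and replicate 2 and in the control (1 bar per mouse, no error bars), with the number of genes below each family. In every replication-dependent family both tet-LIN28B bars are below the control bar, for H3 at 0.0690 and 0.111 against 0.664, while the variant H3 genes gave 0.659 and 0.591 in tet-LIN28B mice against 0.686 in the control.

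Linker histones bind the DNA between nucleosomes. Of their 5 replication-dependent members, 4 were lower in the tet-LIN28B IP than in the input, and Hist1h1a was not called. Hist1h1e had 2.97 and 4.33 FPKM in tet-LIN28B IPs and 41.09 FPKM in the control IP, with inputs of 33.46 and 44.82 FPKM in tet-LIN28B mice against 48.17 FPKM in the control. It was lower in the tet-LIN28B mice than in the control (−2.89 ± 0.29, SE, log2 scale, limma adjusted p = 0.0429). Hist1h1a, by contrast, had 21.42 and 23.26 FPKM in tet-LIN28B IPs and 18.68 FPKM in the control IP, with inputs of 18.38 and 27.51 FPKM in tet-LIN28B mice against 31.01 FPKM in the control. Its 2 tet-LIN28B ratios, 1.17 and 0.846, both lay above the control ratio of 0.602, and neither test passed (log2 IP/input −0.01, limma adjusted p = 0.968). Hist1h1a, Hist1h1b, Hist1h1c, Hist1h1d and Hist1h1e all carry the same 16-nt stem and loop. Neither Hist1h1a nor Hist1h1b shared any 50-nt word with another gene. Hist1h1e shared 32% of its words and overlaps exons of Hist1h2be on the same strand. Hist1h1b (log2 IP/input −1.80), Hist1h1c (−1.29) and Hist1h1d, with ratios of 0.238 and 0.268 in tet-LIN28B mice against 0.676 in the control, were lower in the tet-LIN28B IP and did not pass against the control.

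Besides Hist1h1a and Hist1h2bc, 5 replication-dependent members were not lower in the tet-LIN28B IP. Hist3h2a had 22.41 and 30.28 FPKM in tet-LIN28B IPs and 28.07 FPKM in the control IP, close to its inputs of 26.03 and 26.41 FPKM in tet-LIN28B mice against 35.07 FPKM in the control. Hist2h2be, which has no stem-loop match and a longest model of 2620 nt, had 4.29 and 2.91 FPKM in tet-LIN28B IPs and 9.07 FPKM in the control IP, with inputs of 4.22 and 3.36 FPKM in tet-LIN28B mice against 4.11 FPKM in the control. Hist3h2bb-ps was near the minimum, and Hist2h2aa2 and Hist1h2br share nearly all of their sequence with another gene. Hist2h2aa2 was listed at 12.66 and 0 FPKM in tet-LIN28B IPs, and together with its copy Hist2h2aa1 it gave ratios of 0.273 and 0.472 in tet-LIN28B mice against 0.761 in the control. Hist1h2br with Hist1h2bq gave 0.120 and 0.210 in tet-LIN28B mice against 0.537 in the control, where Hist1h2br alone was listed at 9.09 and 0.04 FPKM in tet-LIN28B IPs and 46.38 FPKM in the control IP.

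Among the variants, the genes H3f3a and H3f3b, which encode the same H3.3 protein, went opposite ways. H3f3a had 571.12 and 786.11 FPKM in tet-LIN28B IPs and 3177.80 FPKM in the control IP, against 3316.72 and 4409.62 FPKM in tet-LIN28B inputs and 5253.83 FPKM in the control input. It was lower in the tet-LIN28B IP than in the input (−2.51 ± 0.16, SE, log2 scale, limma adjusted p = 0.00265), and its difference from the control, −1.79 ± 0.28, just missed the threshold (limma adjusted p = 0.0521). H3f3b had 2303.33 and 2590.52 FPKM in tet-LIN28B IPs and 1334.32 FPKM in the control IP, against 1034.46 and 1292.72 FPKM in tet-LIN28B inputs and 1315.46 FPKM in the control input. It was higher in the tet-LIN28B IP than in the input (1.08 ± 0.16, SE, log2 scale, limma adjusted p = 0.00945), and its difference from the control of 1.06 ± 0.28 did not pass (limma adjusted p = 0.0976). The pair therefore stood in one order in the inputs, H3f3a above H3f3b in every mouse, and in the reverse order in both tet-LIN28B IPs but not in the control IP. FPKM is per transcript length, but reads shared with other entries limit how far the 2 levels can be set against each other. The contrast between the genes was not tested, and 27.1% of the 50-nt words of H3f3a occur in other genes, against 6.86% for H3f3b. Gm17275, opposite H3f3a, had 363.65 and 367.46 FPKM in tet-LIN28B IPs and 485.75 FPKM in the control IP. Its inputs were 590.22 and 783.95 FPKM in tet-LIN28B mice and 791.69 FPKM in the control.

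H2afz and H2afv, which encode the H2A.Z proteins, had ratios of 0.518 and 0.415 in tet-LIN28B mice against 0.744 in the control for H2afz, and of 1.30 and 0.999 in tet-LIN28B mice against 1.30 in the control for H2afv. H2afz was lower in the tet-LIN28B IP than in the input (−1.11 ± 0.18, SE, log2 scale, limma adjusted p = 0.0112) and H2afv was not called. H2afy, the macroH2A gene, had 798.76 and 868.29 FPKM in tet-LIN28B IPs and 621.95 FPKM in the control IP, with inputs of 505.73 and 452.05 FPKM in tet-LIN28B mice against 470.75 FPKM in the control. It was the second variant that was higher in the tet-LIN28B IP (0.80 ± 0.17, SE, log2 scale, limma adjusted p = 0.0209), and its ratio was above 1 in the control as well, at 1.32.

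H2afx, the H2A.X gene that marks DNA breaks when phosphorylated, was the only variant with a stem-loop match, and its longest model ran 822 nt past the loop. It had 107.11 and 197.82 FPKM in tet-LIN28B IPs and 344.63 FPKM in the control IP, against 270.86 and 281.19 FPKM in tet-LIN28B inputs and 363.71 FPKM in the control input. Its log2 IP/input was −0.92 (limma adjusted p = 0.0392), and the call was lost with a pseudocount of 0.1 FPKM, TPM scaling, median centring, no trend, no replicate block or no filter (limma adjusted p from 0.0550 to 0.306); without replicate 1 the value was −0.51. H2afj was lower in the IP at −0.89. H3f3c and H3f3a-ps2, both annotated as processed pseudogenes, share 73.8% and 82.0% of their 50-nt words with other genes, chiefly H3f3a. Both were also lower in the tet-LIN28B IP. The linker variants H1f0, with 19.65 and 14.61 FPKM in tet-LIN28B IPs and 19.74 FPKM in the control IP, and H1fx, at the input minimum, were not called.

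The replication-dependent members were also grouped by the furthest 3′ end of any GENCODE M21 model of the gene, in genomic distance from the stem-loop. In 34 members this end lay within 100 nt of the loop, and 32 of them were lower in the tet-LIN28B IP, with a median log2 IP/input of −3.11. In 24 members it lay 100 nt or more past the loop, and 21 were lower, with a median of −2.11. The median difference from the control was −2.27 in the first set and −1.08 in the second, while the control IP/input had similar medians of −0.83 and −0.74. The sets overlapped widely and also differ in length and sequence sharing, and the difference between them was not tested. In the 6 members with no match the median log2 IP/input was −2.26.

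**Figure D5:**
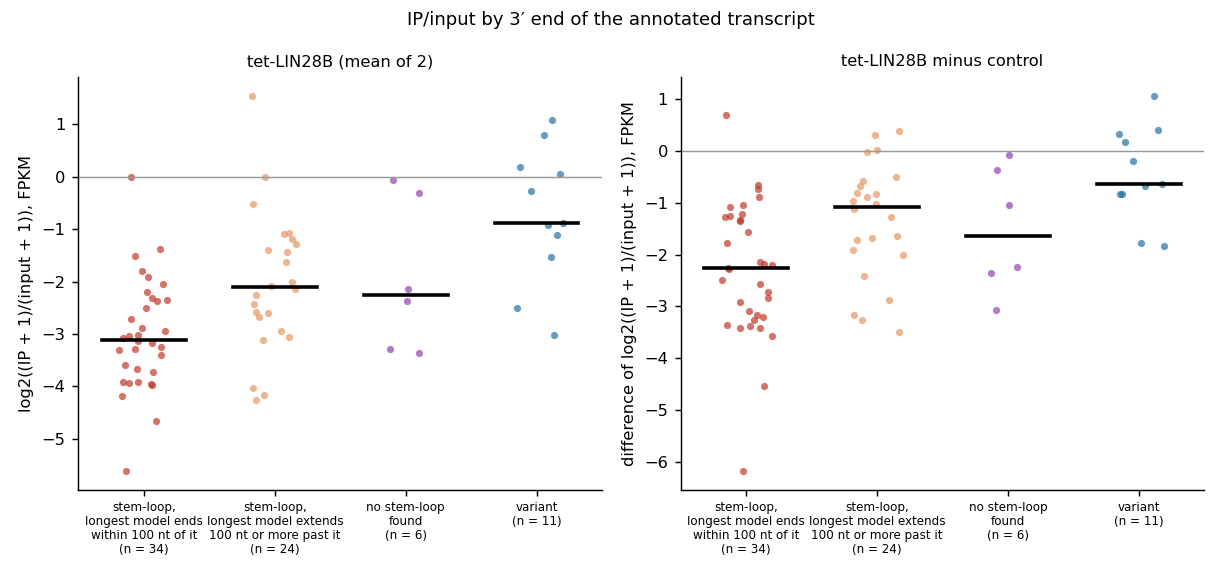
Log2((IP + 1)/(input + 1)) in FPKM in tet-LIN28B mice (left, mean of 2) and its difference from the control (right). Replication-dependent members are grouped by the furthest annotated 3′ end of the gene, which the axis labels call the longest model, and the variants are beside them. Each point is 1 gene and black bars are medians, which were −3.11, −2.11, −2.26 and −0.89 on the left and −2.27, −1.08, −1.64 and −0.63 on the right.

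Short models moved with the result. The longest model had a median of 536.5 nt in the replication-dependent members, 1633 nt in the variants and 2851 nt over all genes with a model. Among 1213 other genes with models under 600 nt the median difference from the control was −0.81, against −2.27 in the 35 replication-dependent members of that length. It was −0.58 against −1.81 (12 members) at 600 to under 1000 nt, −0.57 against −1.13 (9 members) at 1000 to under 2000 nt, and −0.31 against −0.89 (8 members) at 2000 nt or more. The replication-dependent medians lay below those of other genes in each of the 4 length classes, with no test made over genes.

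Sequence sharing among copies is a limit of these values. Of the 64 replication-dependent members, 33 had at least 50% of their 50-nt words in another gene, and 31 had less. In the less shared members 26 of 31 were lower in the tet-LIN28B IP than in the input and 4 were lower than the control, with a median difference of −1.27; in the more shared members the counts were 31 and 10 of 33, and the median was −2.24. In addition 29 of the 75 members overlap exons of another gene, 27 of them on the opposite strand, and the library kit does not mark strand. In 23 of these 27 an opposite entry exceeded 10% of the member's own mean input. Gm44346, opposite the called Hist1h2an, had 2705.08 and 3703.08 FPKM in tet-LIN28B inputs and 3941.36 FPKM in the control input. Inputs of Hist1h2an itself were 31.39 and 28.55 FPKM in tet-LIN28B mice and 27.18 FPKM in the control. Short entries opposite 8 H2A members, among them Gm44466 opposite Hist1h2ap and Gm44484 opposite Hist1h2ab, were each listed at 19.90 and 80.34 FPKM in tet-LIN28B IPs and 341.58 FPKM in the control IP. Their inputs were 1.19 and 0 FPKM in tet-LIN28B mice against 978.48 FPKM in the control for Gm44466, and 897.72 and 1209.74 FPKM in tet-LIN28B mice against 0.05 FPKM in the control for Gm44484, so entries with equal IP values had their input reads in different libraries.

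GGAGA, a sequence LIN28 proteins are known to bind, was counted on the sense strand of the longest models. It occurred in 48 of 64 replication-dependent members (75.0%), in 10 of 11 variants and in 91.6% of all genes with a model, which are longer. Per kb of model the median count was 1.99 in the replication-dependent members, 2.11 in the variants and 1.83 over all genes with a model. Only 4 of the 18 H2A members had it, while all 12 H4 and all 18 H2B members did. Among the abundant variants H3f3a has 6, H3f3b has 4 and H2afv has none. A match describes these letters and draws nothing about binding. Whether the counts go with the IP/input was not tested.

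In the inputs, no gene of 12576 was called between tet-LIN28B mice and the control by limma, so 0 of the 75 members were called, with 680 genes and 9 members at an unadjusted p under 0.05. Under the alternatives run for the inputs no member was called, and up to 32 genes in all were, after median centring. Both tet-LIN28B inputs lay below the control input in 30 of 64 replication-dependent members and in 10 of 11 variants, against 40.5% of all genes tested. The median input difference was −0.15 on the log2 scale in the replication-dependent members and −0.40 in the variants. In these bulk cultures fewer cycling cells and less histone RNA per cell cannot be told apart. The 41 S phase genes had a median input difference of −0.12, with none called.

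The genes that make and process histone mRNA were listed for comparison. Of 26 tested factors of histone transcription and 3′ processing, 7 were higher and 6 lower in the tet-LIN28B IP than in the input (13.9% and 31.0% of all genes tested), and none was called against the control. Slbp, the stem-loop binding protein, had 126.00 and 100.69 FPKM in tet-LIN28B IPs and 161.25 FPKM in the control IP, against 131.09 and 121.39 FPKM in tet-LIN28B inputs and 138.97 FPKM in the control input, so its mRNA was recovered near its input level in all 3 mice. Lsm10, a subunit of the U7 snRNP that cleaves histone pre-mRNA, had ratios of 0.0455 and 0.122 in tet-LIN28B mice against 0.519 in the control (difference −2.52 ± 0.53, SE, log2 scale, limma adjusted p = 0.0711), while its partner Lsm11 had 0.709 and 0.677 in tet-LIN28B mice against 2.02 in the control. For Npat and Casp8ap2, which act in histone gene transcription and at histone locus bodies, the differences of −0.38 and 0.17 did not pass.

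Of 30 histone chaperone and assembly genes, 14 were higher and 7 lower in the tet-LIN28B IP than in the input (13.9% and 31.0% of all genes tested), and Asf1a, an H3-H4 chaperone, was the 1 called lower against the control (2.53% of all genes tested). It had 32.37 and 42.82 FPKM in tet-LIN28B IPs and 231.69 FPKM in the control IP, with inputs of 287.63 and 309.39 FPKM in tet-LIN28B mice against 394.26 FPKM in the control, a difference of −2.20 ± 0.29 (SE, log2 scale, limma adjusted p = 0.0474). Of the 41 S phase genes 7 were higher and 13 lower in the tet-LIN28B IP, shares near those of 13.9% and 31.0% over all genes tested, with none called against the control. Falls of the histone size were also seen outside these lists. Vpreb3, a pre-B cell receptor gene, and Cd79b, a receptor signalling chain, had differences of −3.44 and −3.37 from the control on the log2 scale. They were the 2 called lower of 16 progenitor markers (2.53% of all genes tested). Of these 16, 7 were lower and 3 higher in the tet-LIN28B IP than in the input (31.0% and 13.9% of all genes tested). In the markers of other cell types 17 of 24 tested were lower in the tet-LIN28B IP than in the input (31.0% of all genes tested). None was higher (13.9%). Ppbp (−3.49), Prss34 (−3.39) and Nkg7 (−2.50) were the 3 called lower against the control (2.53% of all genes tested).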

How the data were processed

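RIP-seq was analysed for 2 tet-LIN28B mice and 1 littermate control, each with 1 IP and 1 input library. By the methods, poly(A)-primed SMART-Seq v4 cDNA was made into Nextera XT libraries, which do not mark strand. The paper's results call the input sequencing total RNA. The authors deposited FPKM per gene, made with STAR 2.7.1 and RSEM 1.28 on mm10; RSEM splits reads shared by near-identical genes by estimate, and the annotation release was not given in these sources. The closing line of every description gives the other fraction than the title does; titles and column names, which match, were followed. The labels give Dox as 0.1 mg/mL and the methods as 0.1 µg/mL.

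The 12576 genes whose inputs averaged 1 FPKM or more were tested with limma 3.58.1 in R 4.3.3 on log2((IP + 1)/(input + 1)) within each mouse, with genotype as factor and a variance trend on mean expression, on 1 residual degree of freedom plus 3.56 prior ones. Fold changes on this scale understate those of low genes. Inputs were compared in the same way. IP and input pair by mouse, from the titles; deviations of the tet-LIN28B inputs and IPs had r = 0.132 across genes. No 2 of the 15 library pairs were identical. P-values measure the spread between 2 cultures.

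Alternatives were other pseudocounts, filters, scalings, no trend, no replicate block, leaving out a tet-LIN28B mouse, family sums and classes by stem-loop; less shared members were added after seeing the data. Models were GENCODE M21 and sequences RefSeq, both GRCm38, the build of mm10, read with Python 3; all 75 members matched by symbol. The code was tested on simulated data. The histone members and all gene lists were chosen with earlier results of these data known. Named genes were all variants, replication-dependent members called against the control or among the 5 highest or lowest in the tet-LIN28B IP, others of at least 10 FPKM, and set factors (Slbp, Lsm10, Lsm11, Npat, Casp8ap2) or list genes called against the control. Hist1h1d and Hist1h2aj were named outside this rule, after their values were seen.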

Additional observations from a re-analysis of the deposited data

Results flagged for a closer look

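Of the 64 replication-dependent members, 14 differed between the genotypes in their IP/input, all 14 with the lower values in tet-LIN28B mice. The control is 1 mouse, and its share in the result was not tested. The groups are too small for single libraries to be tested as outliers.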

How the results depend on the processing

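All 57 replication-dependent members lower in the tet-LIN28B IP lost their call with no filter (0), where the variants had 0 lower and 0 higher, and the study's filter of 50 FPKM in the tet-LIN28B libraries kept 2 of these members, both lower. Against the control, the count of 14 became 0 with a pseudocount of 0.1 FPKM, no filter, no trend or no replicate block. It was 23 with a pseudocount of 5 FPKM, where 764 of 12576 genes were called lower. At an input of at least 10 FPKM it was 31, where 1130 of 6347 genes were called lower. With the study's filter it was 2, where 324 of 1460 genes were called lower. All 14 were among the members called with a pseudocount of 5 FPKM, an input of at least 10 FPKM or TPM scaling, and 10 of them after median centring. Variants called lower against the control numbered 1 with a pseudocount of 5 FPKM, at an input of at least 10 FPKM and with TPM scaling, and 3 with the study's filter, where 1 was higher. The mouse pairs IP with input, and dropping this replicate block left 56 replication-dependent members lower in the tet-LIN28B IP. The cause of these changes was not tested. Variants lower in the tet-LIN28B IP, 6 in all, were 4 with a pseudocount of 0.1 FPKM and 5 with TPM scaling, centring, no trend or no replicate block. For the inputs, 7 alternatives were run, under which 0 members and 0 to 32 genes in all were called; the study's filter, no replicate block and leaving out a mouse were not run for this comparison.

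The replication-dependent median log2 IP/input was −3.22 with a pseudocount of 0.1 FPKM, −1.91 with 5 FPKM, −3.07 at an input of at least 10 FPKM, −2.34 after centring, −3.11 with the study's filter, −3.48 over family sums and −2.26 in the less shared members. Its difference from the control was −2.35, −1.16, −2.24, −1.41, −2.26, −2.89 and −1.27 in the same order. For the variants, the median log2 IP/input was −0.56 with a pseudocount of 5 FPKM and −0.47 over family sums, and the difference was −0.19, −0.14, −0.29 after centring and −0.41 without H2afx, moved out for its stem-loop. Leaving out 1 tet-LIN28B mouse leaves no residual degrees of freedom, so it gives values only. The replication-dependent IP/input then ran from −2.68 to −2.38 and the difference from −1.87 to −1.61, the variant values from −0.95 to −0.51 and from −0.52 to −0.38, and 57 members had a ratio below 0.5 either way. The median difference over all genes was −0.39, −0.51 with TPM scaling and −0.05 after centring.

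Over all 75 members, no called value changed sign under these alternatives or without either tet-LIN28B mouse, and 0 to 4 uncalled values did so per setting and comparison. Among them were the log2 IP/input values of Hist1h1a (0.089 with TPM scaling, 0.29 after centring), Hist2h2be (0.013 and 0.24), Hist3h2a (0.093 and 0.30) and H1fx (0.026 after centring), and the differences from the control of Hist1h2bc and Hist3h2bb-ps (both after centring), H2afv (0.15 after centring) and H1fx (−0.018 with a pseudocount of 0.1 FPKM). Read depth is unknown, so the counting error behind low values could not be given.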

Other observations

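Of the 14 histone entries below the input minimum, H2afb1, H2afb2, H2afb3, H2afy3, H2af-ps and Hist1h2ba were listed at 0 in all 6 libraries. Hist1h1t, the testis linker histone, reached 0.21 FPKM in the control input and was at 0 in all 3 IPs. Hist1h2aj was the 1 member listed at 0 in all 3 IPs, with inputs of 3.82 and 3.03 FPKM in tet-LIN28B mice and 2.40 FPKM in the control.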
